A study of Mus musculus with 28 samples.

Results

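Ellagic acid (EA), a polyphenol that whisky takes up from barrel wood, was added to the ethanol diet of wild-type mice, and the liver transcripts of mice fed ethanol plus EA (EtOH + EA) were set against those of mice fed ethanol alone (EtOH). The comparison holds 8 of the 28 arrays of the series, chosen by the diet in the sample titles: EtOH + EA arrays 1, 2, 3 and 4 and EtOH arrays 1, 3, 4 and 5. Both groups were female C3H/HeN mice of the WT genotype, 5 weeks old at the start, with a mouse to each array, and both drank ethanol, so EA is the only labelled difference. The liquid diet of Lieber was given freely for 1 week and then at 12 g a day for 4 weeks, with about 50 mg of polyphenol per kg of body weight a day in the EtOH + EA group. Livers were taken at the same hour of the day from each group. The fit also held 4 arrays of ethanol plus trans-resveratrol (EtOH + RSV) and 4 of an ethanol-free control diet. The same EA diet in mice that lack the constitutive androstane receptor (CAR), with 3 arrays of EtOH + EA and 3 of EtOH, is set beside it.

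The liver keeps time with a loop of transcription factors. Clock and Arntl, which encodes BMAL1, switch on the Per and Cry genes, whose proteins block Clock and BMAL1, and the same loop drives the PAR bZIP factors Dbp, Tef and Hlf, which pass the rhythm on to metabolic genes. A hepatocyte also makes and secretes large amounts of protein. The aminoacyl-tRNA synthetases supply charged tRNAs for this, and the chaperones of the cytosol and of the endoplasmic reticulum (ER) fold what is made and are raised by the heat shock and unfolded protein responses.

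Of 45037 probe sets tested, 497 were higher in EtOH + EA than in EtOH (1.1%) and 569 were lower (1.26%), by limma with all 4 diets in 1 fit and an adjusted p under 0.05 (Benjamini and Hochberg). Values are log2 values made by Distribution Free Weighting (DFW), which stretches or shrinks the spread of every probe set separately, so no difference below is a calibrated log2 fold change. In 38404 probe sets (85.3%) the values were pressed together, so that their standard deviation over the 16 wild-type arrays did not exceed 0.01, and these are called compressed. Compressed probe sets gave 215 of the higher calls and 193 of the lower ones, with no difference above 0.021 in size. Among the 6633 uncompressed probe sets, 282 were higher (4.25%) and 376 lower (5.67%), and the EtOH + EA and EtOH arrays did not overlap in 276 and 368 of them, beside 24.8% of all uncompressed probe sets. Counted by gene, with a gene read by its probe set of highest mean level, 284 of 18193 genes were higher (1.56%) and 295 lower (1.62%). For the 3855 genes whose probe set was uncompressed these were 181 (4.7%) and 215 (5.58%). The median difference was 3.58e-06 over all genes and -0.0168 over those 3855 genes.

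The median size of an uncompressed difference was 0.394 for the higher calls and 0.297 for the lower calls. A difference of at least 1 was found for 18 higher and 2 lower probe sets. Pearson's r between the 8 arrays lay between 0.9932 and 0.9985 over all probe sets. The counts were lowest without EtOH + EA array 3, at 183 higher and 153 lower, and highest without EtOH array 3, at 539 and 613. They fell by over 1.5 times in either direction also without EtOH + EA array 2 or 4 or EtOH array 1, and the lower calls without EtOH + EA array 1 or EtOH array 4. With only the EtOH + EA and EtOH arrays in the fit they were 49 and 62. Of the 30 genes with the largest differences, 26 lost the call in that fit (adjusted p up to 0.21), and of the 85 passing genes of the 49 lists used here 9 kept it: Aars, Amacr, Eif2ak3, Gpat3, Gys2, Hexim1, Rbm14, Sfpq and Slc30a10.

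**Figure D1:**
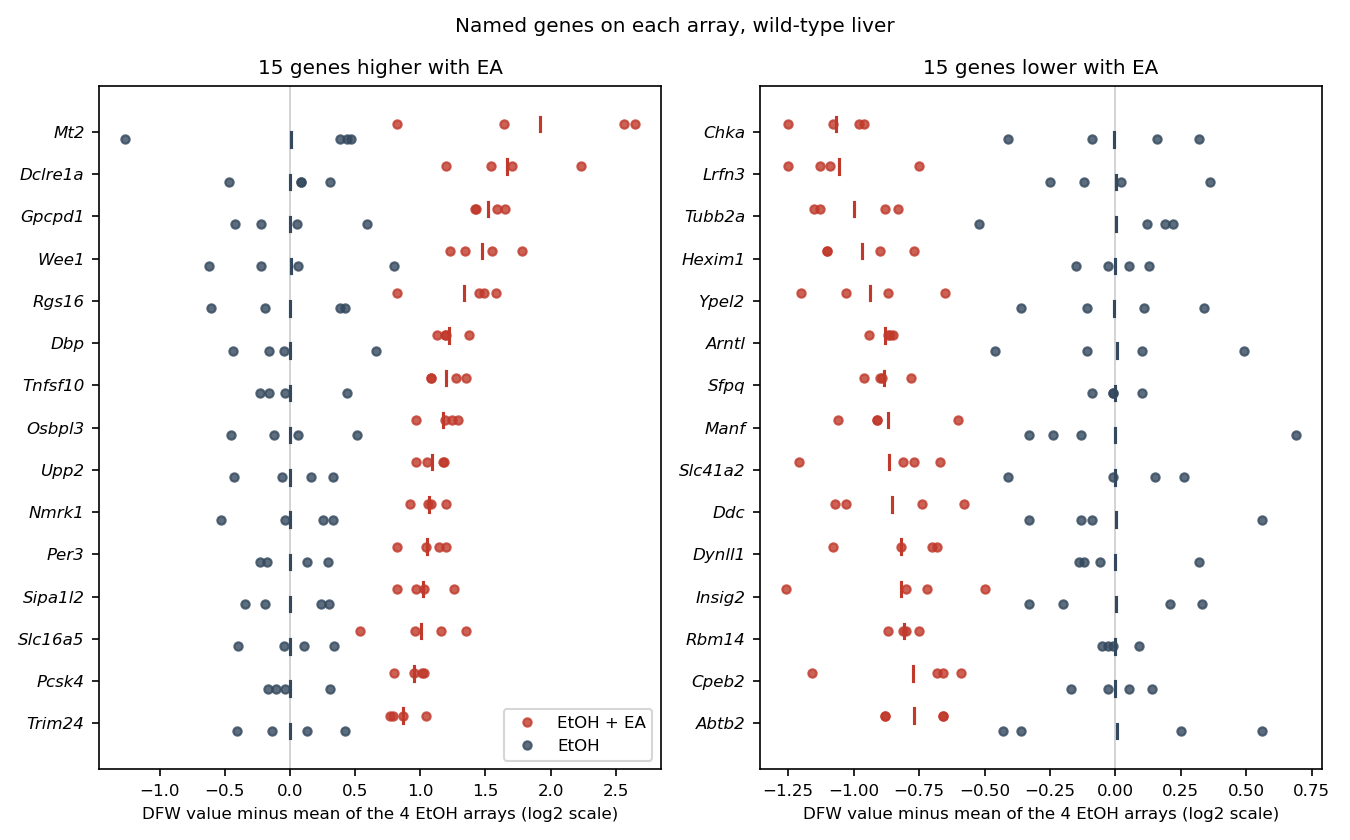
Each point is 1 array of wild-type liver, shown as its DFW value (log2 scale) minus the mean of the 4 EtOH arrays, for the 15 genes with the largest rise and the 15 with the largest fall (red, EtOH + EA; dark, EtOH; vertical bars, group means, n = 4 each). The groups do not overlap for any of the 30, which is part of how they were chosen, and the EtOH array of Mt2 at 8.03 and that of Tubb2a at 8.77 stand away from the rest of their group.

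Genes of the circadian clock were among the largest differences: Wee1, Dbp and Per3 were higher with EA and Arntl was lower. Of 10 clock repressors, 2 were higher and 0 lower, and of 11 activators and output factors 4 were higher and 2 lower, beside 1.56% and 1.62% of all genes. Of genes with an uncompressed probe set 4.7% were higher and 5.58% lower. The repressors had a median difference of 0.393, with 9 of 10 above 0. The lists, like all lists here, were written with earlier results of these data known.

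Per3, a clock repressor (1421087_at), read 8.35, 8.67, 8.73 and 8.57 on EtOH + EA arrays 1 to 4, against 7.30, 7.82, 7.35 and 7.66 on EtOH arrays 1, 3, 4 and 5. The groups did not overlap, and the difference was 1.05 (standard error 0.153, adjusted p = 0.0066). A further pair of uncompressed Per3 probe sets passed as well, with differences of 0.61 (1442243_at, adjusted p = 0.024) and 0.72 (1458176_at, adjusted p = 0.048). Cry2, a repressor that pairs with the Per proteins, read 7.98, 8.17, 8.32 and 8.03 in EtOH + EA livers and 7.46, 7.78, 7.61 and 7.52 in EtOH livers, a difference of 0.53 (adjusted p = 0.018). Its lowest EtOH + EA array lay 0.2 above its highest EtOH array, and the call was lost without EtOH + EA array 2 or 3 or EtOH array 1 (adjusted p up to 0.06). Per2 (0.68, adjusted p = 0.12), Per1 (0.53, adjusted p = 0.5) and Ciart (0.76, adjusted p = 0.059) did not pass.

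The promoter of Per3 held the D-box, the site bound by Dbp, Tef and Hlf, at 2 places, and that of Tef held the E-box bound by Clock and BMAL1. They are shown as the windows with these letters among the 8 clock genes that passed. The letters searched were TTATGNAA for the D-box and CACGTG for the E-box, on both strands, from 250 bases before to 50 after the start site (RefSeq, GRCm38.p6), with matches in capitals. The D-box stood in the windows of 3.99% of 27025 genes and the E-box in 8.09%. Of 8 clock repressors with a window, Per1 and Per3 held a D-box, and Bhlhe41, Ciart, Cry1 and Per1, of which 0 passed, an E-box. Of 10 activators and output factors Noct held a D-box and Tef an E-box. Per3 lies at chr4:151044759-151044915 on the minus strand, with its D-boxes 205 and 158 bases before the start, and Tef at chr15:81802501-81802610 on the plus strand, with its E-box 127 bases before it.
Per3: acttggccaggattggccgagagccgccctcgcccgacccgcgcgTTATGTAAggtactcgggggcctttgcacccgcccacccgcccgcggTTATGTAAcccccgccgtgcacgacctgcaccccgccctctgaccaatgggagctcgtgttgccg
Tef: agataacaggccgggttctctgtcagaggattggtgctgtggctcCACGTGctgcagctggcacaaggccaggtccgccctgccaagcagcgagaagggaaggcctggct

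Dbp (1438211_s_at), a PAR bZIP output factor, read 11.69, 11.68, 11.86 and 11.62 in EtOH + EA livers and 10.44, 11.15, 10.33 and 10.05 in EtOH livers. The EtOH + EA arrays lay within 0.24 of each other and above all EtOH arrays, a difference of 1.22 (adjusted p = 0.01, standard error 0.199), and its other probe set gave 1.14 (adjusted p = 0.01). Hlf read 8.71, 8.76, 9.04 and 8.64 in EtOH + EA livers and 7.69, 8.34, 7.73 and 7.94 in EtOH livers (difference 0.86, adjusted p = 0.015, and 0.054 without EtOH + EA array 3). Tef read 10.48, 10.45, 10.64 and 10.47 in EtOH + EA livers and 9.69, 10.14, 9.79 and 9.77 in EtOH livers (difference 0.66, adjusted p = 0.025). On the probe sets read here, all 3 PAR bZIP factors were thus higher with EA without overlap. Of uncompressed probe sets, 2 of 2 passed for Dbp and 1 of 2 each for Hlf and Tef. The call of Tef was lost in 6 of the 8 fits without 1 array (EtOH + EA array 2, 3 or 4 or EtOH array 1, 4 or 5, adjusted p up to 0.085).

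Wee1, a kinase that holds back mitosis and is driven by the clock in liver (1416773_at), read 8.95, 9.27, 9.50 and 9.06 in EtOH + EA livers and 7.50, 8.52, 7.78 and 7.10 in EtOH livers. The difference was 1.47 (standard error 0.312, adjusted p = 0.031) without overlap, though the call was lost in 6 of 8 fits without 1 array (EtOH + EA array 2, 3 or 4 or EtOH array 1, 4 or 5, adjusted p up to 0.1), and a second probe set gave only 0.28 (1416774_at, adjusted p = 0.033). Usp2, a deubiquitinase with a strong liver rhythm, had a difference of 1.59 that missed the threshold (adjusted p = 0.054): it read 9.11, 9.34, 9.68 and 9.37 in EtOH + EA livers and 7.24, 9.17, 7.06 and 7.66 in EtOH livers, where array 3 lay inside the EtOH + EA range.

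The positive arm went the other way. Arntl (1425099_a_at) read 6.43, 6.44, 6.35 and 6.42 in EtOH + EA livers and 7.78, 6.83, 7.18 and 7.39 in EtOH livers, a difference of -0.89 (standard error 0.166, adjusted p = 0.018). The spread was 0.038 among EtOH + EA mice and 0.397 among EtOH mice (SD, n = 4 each), and the call was lost without EtOH + EA array 3 or 4 (adjusted p up to 0.062). Clock read 7.67, 7.50, 7.27 and 7.41 in EtOH + EA livers and 8.23, 8.00, 8.50 and 8.19 in EtOH livers (difference -0.77, adjusted p = 0.015, and 0.054 without EtOH + EA array 3). Nfil3, a repressor that competes for D-boxes, had a difference of -0.58 that did not pass (adjusted p = 0.1).

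EtOH array 3 was the EtOH array nearest to the EtOH + EA arrays for each of the 8 clock genes that passed: highest for Per3, Cry2, Dbp, Hlf, Tef and Wee1, and lowest for Arntl and Clock. Without it 4 repressors and 5 activators or output factors were higher and 2 lower. Without EtOH + EA array 3 these were 1, 1 and 0. With only the EtOH + EA and EtOH arrays in the fit 0 of the 8 passed (adjusted p 0.06 to 0.12). EtOH against control gave no passing difference in these 8 genes, with adjusted p from 0.053 (Hlf, -0.56) to 0.97 (Per3, -0.02). Against the EtOH arrays, which they share with EA, the RSV arrays differed by 0.93 for Per3 (adjusted p = 0.036), 0.99 for Dbp (adjusted p = 0.06) and -0.69 for Arntl (adjusted p = 0.093), and EA against RSV gave 0.12 for Per3 (adjusted p = 0.86), 0.23 for Dbp (adjusted p = 0.77) and -0.19 for Arntl (adjusted p = 0.77).

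**Figure D2:**
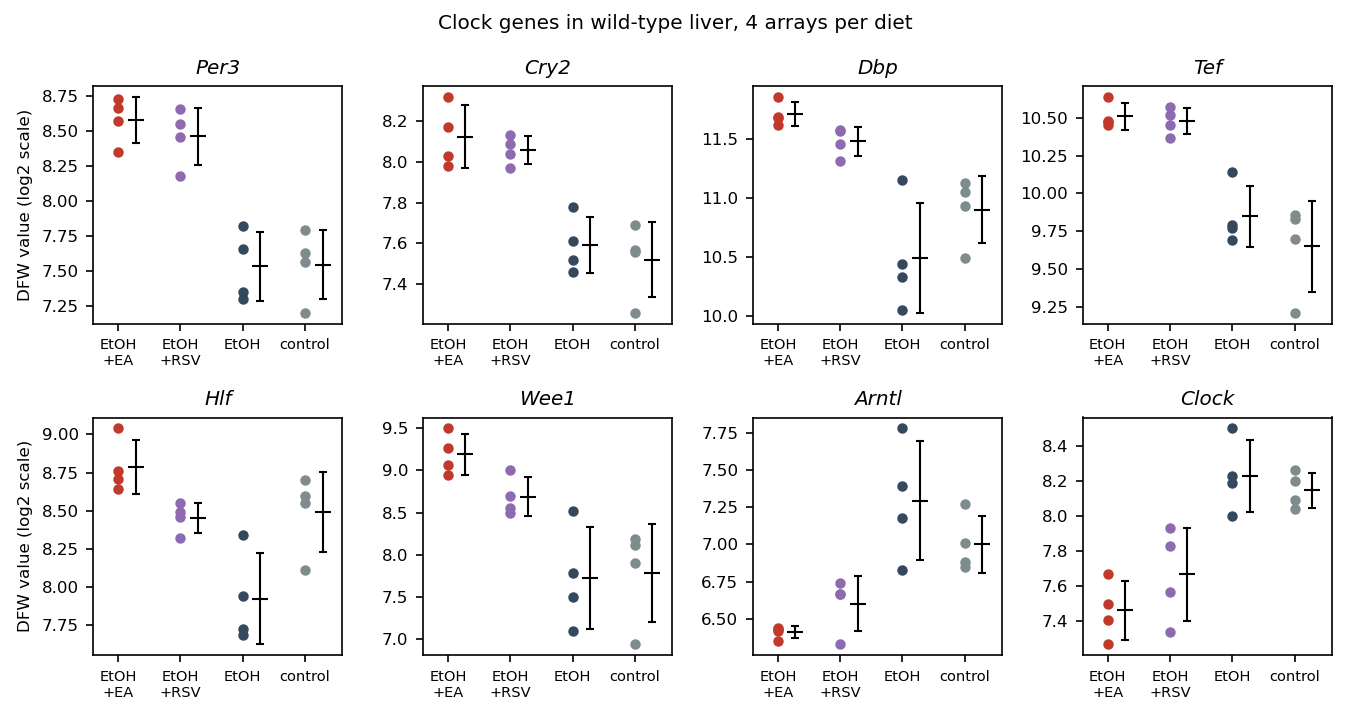
DFW values (log2 scale) of 8 clock genes on each wild-type array, 4 per diet, in the order EtOH + EA, EtOH + RSV, EtOH and control, with the mean and SD beside the points. Per3, Cry2, Dbp, Tef, Hlf and Wee1 are higher and Arntl and Clock lower in EtOH + EA than in EtOH livers, with 1 EtOH array of Dbp at 11.15 against 10.05 to 10.44 for the rest.

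In 5 lists of protein synthesis, folding and disposal some members were lower with EA and 0 were higher, while most members did not pass. Of 19 cytosolic aminoacyl-tRNA synthetases 6 were lower, of 24 cytosolic heat shock proteins 6, of 20 ER chaperones and disulfide isomerases 5, of 31 ER stress sensors, degradation factors and translocon parts 6, and of 31 proteasome subunits 6. These stand beside 1.62% of all genes that were lower, and 5.58% of those with an uncompressed probe set. All 19 synthetases and all 20 ER chaperones had a difference under 0, with medians of -0.054 and -0.306. Only 10 of the synthetases and 18 of the ER chaperones were uncompressed, with medians of -0.238 and -0.378. The other differences have no readable size. The medians were -0.205 for the heat shock proteins, -0.158 for the sensors and translocon and -0.0489 for the proteasome, with 4, 4 and 2 members above 0. In these lists 21, 25 and 22 members were uncompressed. With only the EtOH + EA and EtOH arrays in the fit, Aars and Eif2ak3 alone of the members that passed kept the call.

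Hspa5, the main ER chaperone BiP, read 11.93, 11.66, 11.70 and 11.54 in EtOH + EA livers and 12.22, 12.16, 12.09 and 12.56 in EtOH livers. The groups did not overlap, and the difference was -0.55 (adjusted p = 0.03). Manf, an ER-resident factor released under ER stress (1428112_at), read 9.89, 9.58, 9.58 and 9.43 in EtOH + EA livers and 10.36, 10.25, 10.16 and 11.18 in EtOH livers, where array 5 was the highest (difference -0.87, standard error 0.201, adjusted p = 0.045). Hyou1, an ER chaperone that aids BiP, had a difference of -0.68 (adjusted p = 0.037), Dnajc3, a co-chaperone of BiP, one of -0.42 (adjusted p = 0.045) and the disulfide isomerase Txndc5 one of -0.28 (adjusted p = 0.04). Creld2 (-0.58, adjusted p = 0.091), Sdf2l1 (-0.49, adjusted p = 0.16) and Hsp90b1 (-0.10, adjusted p = 0.48) did not pass. The number of ER chaperones that passed was 0 without EtOH + EA array 2, 3 or 4, between 1 and 3 without EtOH + EA array 1 or EtOH array 1, 4 or 5, and 10 without EtOH array 3.

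Syvn1, the ubiquitin ligase of ER-associated degradation (1443609_s_at), read 8.64, 8.55, 8.68 and 8.51 in EtOH + EA livers and 9.07, 9.20, 8.97 and 9.46 in EtOH livers, a difference of -0.58 (adjusted p = 0.0096). Eif2ak3, the ER stress sensor PERK, read 7.93, 7.87, 7.79 and 7.99 in EtOH + EA livers and 8.43, 8.29, 8.42 and 8.45 in EtOH livers (difference -0.50, adjusted p = 0.0085). Neither gene's groups overlapped, and both kept the call in all 8 fits without 1 array, as did the degradation factor Selenos (-0.35, adjusted p = 0.015). The signal peptidase part Spcs2 (-0.37, adjusted p = 0.024), the translocon channel Sec61a1 (-0.33, adjusted p = 0.047) and the signal recognition particle part Srp9 (-0.16, adjusted p = 0.04) lost it in 5, 7 and 5 of the 8 fits, with adjusted p up to 0.084, 0.13 and 0.12. The count of this list was 14 without EtOH array 3 and 3 without EtOH + EA array 2 or 3 or EtOH array 1 or 4.

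The ER stress element, read by ATF6, stood in the promoter windows of Hspa5, Dnajc3 and Syvn1, which are shown because all 3 passed as lower with EA. Of their uncompressed probe sets, 2 of 3 passed for Hspa5, 1 of 4 for Dnajc3 and 2 of 2 for Syvn1. The element was searched as CCAAT and CCACG with 9 bases between them, on both strands, and CCACG shares the letters CACG with the E-box. Of 18 ER chaperones with a window 8 held it (44.4%), of 25 sensors, degradation factors and translocon parts 2 did (8.0%), and of all 27025 genes 0.137%. Hspa5 lies at chr2:34771980-34772089, Dnajc3 at chr14:118937782-118937891 and Syvn1 at chr19:6046487-6046596 (GRCm38.p6, all on the plus strand), and the element starts 65, 105 and 44 bases before the start site.
Hspa5: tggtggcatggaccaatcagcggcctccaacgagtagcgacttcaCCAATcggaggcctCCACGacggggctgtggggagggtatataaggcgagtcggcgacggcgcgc
Dnajc3: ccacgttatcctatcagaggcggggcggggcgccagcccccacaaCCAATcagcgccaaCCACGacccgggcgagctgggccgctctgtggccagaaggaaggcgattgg
Syvn1: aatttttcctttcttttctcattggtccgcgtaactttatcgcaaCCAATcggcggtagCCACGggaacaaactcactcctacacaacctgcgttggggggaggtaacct

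In the cytosol, Dnajb1, an inducible HSP40 co-chaperone, read 8.12, 8.09, 8.34 and 8.11 in EtOH + EA livers and 9.0, 9.0, 8.77 and 8.71 in EtOH livers. The difference was -0.71 (adjusted p = 0.0048) without overlap, and the call held in all 8 fits without 1 array. Bag3, which hands Hsp70 clients to autophagy, read 7.73, 7.83, 7.95 and 7.87 in EtOH + EA livers and 8.12, 8.53, 8.11 and 8.44 in EtOH livers (difference -0.45, adjusted p = 0.035, lost in 6 of 8 fits without 1 array, adjusted p up to 0.092). Hspa1a, an inducible Hsp70, had a difference of -0.42 (adjusted p = 0.026), Fkbp4 of -0.31 (adjusted p = 0.016), Stip1 of -0.29 (adjusted p = 0.038) and Hspa4 of -0.23 (adjusted p = 0.041), the last 3 being cofactors or relatives of Hsp70 and Hsp90. Hspa1b, a near-identical copy of Hspa1a, had a larger difference of -1.13 that did not pass (adjusted p = 0.11): it read 9.66, 9.20, 9.52 and 9.68 in EtOH + EA livers and between 9.95 and 11.52 in EtOH livers. Signal of these copies cannot be kept apart with certainty, and the call of Hspa1a was lost without any of the EtOH + EA arrays or EtOH array 1 (adjusted p up to 0.077). The list gave 1 lower member without EtOH + EA array 3 or 4, 2 without EtOH + EA array 2 or EtOH array 1, and 3 to 5 without any other array.

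The heat shock motif GAANNTTC was in the windows of 11 of 21 of these genes (52.4%) and of 9.04% of all genes. Hspa1a, at chr17:34972196-34972305 on the minus strand, holds it 104 bases before the start, and Bag3, at chr7:128523580-128523632 on the plus strand, holds it after the start (GRCm38.p6). They are shown as members that fell and carry it, and Fkbp4 was the other such gene. Of the 6 members that fell 3 thus held it, beside the 11 of 21 of the list, and Dnajb1, Stip1 and Hspa4 did not.
Hspa1a: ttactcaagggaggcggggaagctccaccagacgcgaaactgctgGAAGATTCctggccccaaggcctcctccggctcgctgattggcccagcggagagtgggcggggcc
Bag3: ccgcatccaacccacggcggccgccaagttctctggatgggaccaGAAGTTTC

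Among the synthetases, Aars (alanine, 1451083_s_at) read 9.39, 9.36, 9.38 and 9.21 in EtOH + EA livers and 9.68, 9.76, 9.69 and 9.69 in EtOH livers, a difference of -0.37 (standard error 0.0357, adjusted p = 0.0011). Tars (threonine, 1460323_at) read 9.58, 9.47, 9.36 and 9.38 in EtOH + EA livers and 10.03, 9.78, 10.09 and 10.03 in EtOH livers, a difference of -0.54 (adjusted p = 0.0057). Neither overlapped, and both calls held in all 8 fits without 1 array. Cars (cysteine, -0.32, adjusted p = 0.025) and Nars (asparagine, -0.25, adjusted p = 0.037) lost theirs in 5 and 7 of them (adjusted p up to 0.085 and 0.11). Yars (tyrosine) and Hars (histidine) passed on compressed probe sets, with differences of -0.000466 and -0.000303, which have no readable size. The list gave 3 to 6 lower members without any 1 array.

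Aars, Tars and Yars each carried the ATF4 element TGATGNAA, on either strand, in their windows, as did 5 of 12 synthetases with a window (41.7%) and 4.51% of all genes. Cars, Hars and Nars, which were also lower, had no window to search. The element is read by ATF4, the factor of the amino acid response, and cannot match the D-box at the same letters. Of 27 other ATF4 targets of the amino acid response, 8 of 25 with a window held it (32.0%), and 0 were higher and 0 lower with EA, against 2 and 3 at an unadjusted p under 0.05 and 3 and 7 by rank product. Atf4 itself had a difference of -0.07 (adjusted p = 0.83), Asns of 0.21 (adjusted p = 0.7) and Trib3 of 0.58 (adjusted p = 0.1). The sequences are those of the 3 synthetases that fell and carry the element, Aars at chr8:111033685-111033891 and Yars at chr4:129189861-129189952 on the plus strand and Tars at chr15:11399609-11399718 on the minus strand (GRCm38.p6).
Aars: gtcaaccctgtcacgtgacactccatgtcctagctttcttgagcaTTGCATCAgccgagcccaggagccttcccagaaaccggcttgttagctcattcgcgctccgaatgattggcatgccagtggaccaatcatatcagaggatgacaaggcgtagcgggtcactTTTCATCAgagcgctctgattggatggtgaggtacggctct
Tars: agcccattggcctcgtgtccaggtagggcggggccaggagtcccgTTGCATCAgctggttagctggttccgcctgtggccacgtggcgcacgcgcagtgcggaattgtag
Yars: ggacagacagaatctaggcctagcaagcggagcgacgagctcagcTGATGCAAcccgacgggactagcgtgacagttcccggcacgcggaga

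The proteasome subunits moved little. Psmb5, a catalytic subunit, read 10.48, 10.45, 10.36 and 10.52 in EtOH + EA livers and 10.67, 10.65, 10.62 and 10.63 in EtOH livers (difference -0.19, adjusted p = 0.041), and the deubiquitinase Psmd14 had a difference of -0.19 (adjusted p = 0.015). Psmb3 (-0.15, adjusted p = 0.046), Psma2 (-0.14, adjusted p = 0.047) and Psmd6 (-0.10, adjusted p = 0.018) passed with smaller ones, and Psmb2 on a compressed probe set. Of the 6, Psmd14 and Psmd6 lost the call in 1 and 2 of the 8 fits without 1 array and Psmb5 in all 8 (adjusted p up to 0.056, 0.065 and 0.12). The list gave 0 without EtOH + EA array 3 and 9 without EtOH array 5. Of 8 subunits of the chaperonin CCT, Cct3 was lower (-0.21, adjusted p = 0.0054) and 0 were higher. This stands beside 1.62% lower and 1.56% higher of all genes, and 5.58% and 4.7% of those with an uncompressed probe set.

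**Figure D3:**
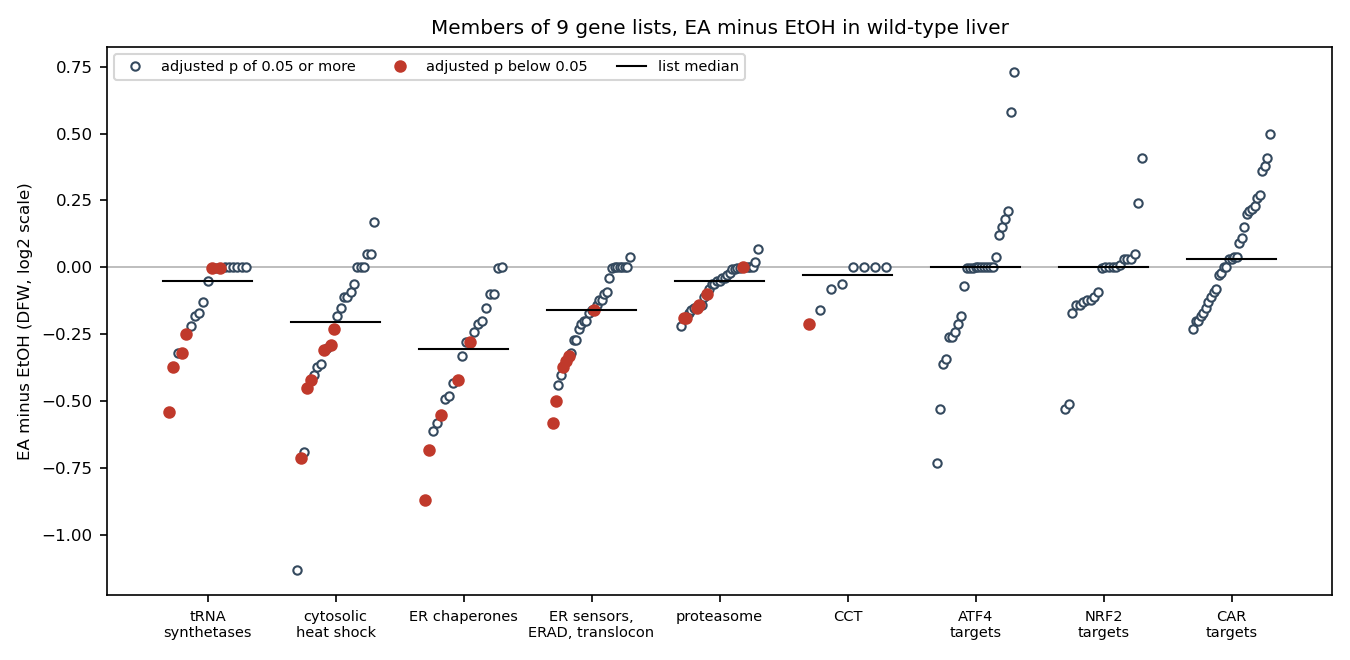
Each point is a gene of 1 of 9 lists, placed by its difference of EtOH + EA minus EtOH in wild-type liver (DFW, log2 scale), filled where the adjusted p is under 0.05, with a line at the list median. Points below 0 make up all 19 tRNA synthetases and all 20 ER chaperones, while the lists of ATF4, NRF2 and CAR targets hold no filled point. Only 10 of the synthetases and 18 of the ER chaperones were uncompressed, and the other differences have no readable size.

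A pair of nuclear RNA-binding proteins was lower with EA, with adjusted p values among the smallest of the comparison. Rbm14, a paraspeckle protein and coactivator (1436979_x_at), read 7.73, 7.79, 7.85 and 7.80 in EtOH + EA livers and 8.59, 8.55, 8.57 and 8.69 in EtOH livers, a difference of -0.80 (standard error 0.0482, adjusted p = 3.1e-05). Sfpq, its partner in paraspeckles and a splicing factor (1423795_at), read 8.07, 8.13, 8.25 and 8.14 in EtOH + EA livers and 8.94, 9.13, 9.02 and 9.02 in EtOH livers, a difference of -0.88 (standard error 0.0633, adjusted p = 9.1e-05). The nearest arrays of the groups were 0.70 and 0.69 apart, beside a range of at most 0.19 within a group, and both genes kept the call with only the EtOH + EA and EtOH arrays in the fit (adjusted p = 0.0081 and 0.014), which only 4 of the 30 named genes did.

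These 2 genes also set EA apart from RSV. EtOH + RSV arrays read 8.52, 8.41, 8.44 and 8.42 for Rbm14, all above the EtOH + EA arrays, with EA against RSV at -0.66 (standard error 0.0482, adjusted p = 0.00017). For Sfpq they read 8.48, 8.66, 8.76 and 8.79, between the EtOH + EA and the EtOH arrays, with EA against RSV at -0.52 (adjusted p = 0.013). In all, 11 probe sets differed between EA and RSV (0.0244%). Of these, 4 were of Rbm14 (1 compressed, the rest ending in x) and 1 was of Sfpq. Another of them was of Amacr, the racemase of branched fatty acids and bile acid intermediates: it read 11.24, 11.30, 11.27 and 11.22 in EtOH + EA livers and 11.07, 11.14, 11.07 and 11.03 in EtOH + RSV livers, a difference of 0.18 (adjusted p = 0.031). Rlim passed on a compressed probe set, and 4 probe sets name no single gene. RSV against EtOH, in the same arrays, gave 164 probe sets (0.364%), but a count of calls in each does not test their difference, which EA against RSV does.

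Not every probe set of these genes moved alike. Rbm14 passed on 3 uncompressed probe sets, with differences of -0.80, -0.58 and -0.75, and all 3 end in x. Its other probe sets are compressed: 1450569_a_at passed, with a difference of -0.000586, and 1452003_at did not pass. Sfpq gave -0.88, -0.40 (1438458_a_at, adjusted p = 0.045) and -0.04 (1423796_at, adjusted p = 0.013), and -0.19 on 1436898_at, which did not pass (adjusted p = 0.54). Probe sets ending in x share probes with other transcripts, and without shared probe sets the count of EA against RSV was 5.

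Of 40 splicing factors and nuclear RNA-binding proteins, 4 were lower and 1 higher, beside 1.62% and 1.56% of all genes. Of genes with an uncompressed probe set 5.58% were lower and 4.7% higher. Srsf5, a splicing factor, was the higher gene of the list: it read 11.13, 11.28, 11.05 and 11.26 in EtOH + EA livers and 10.11, 10.60, 10.62 and 10.60 in EtOH livers (difference 0.70, adjusted p = 0.0087). U2af1, which marks the 3' splice site, was lower (-0.27, adjusted p = 0.041), and Srsf10 passed on a compressed probe set. Hexim1, the protein that holds the elongation factor P-TEFb inactive (1425937_a_at), read 8.23, 7.90, 8.10 and 7.90 in EtOH + EA livers and 9.13, 8.97, 8.85 and 9.05 in EtOH livers. The groups lay 0.62 apart at their nearest arrays, with a difference of -0.97 (standard error 0.0895, adjusted p = 0.00078) that also held with only those groups in the fit (adjusted p = 0.037). Of 18 genes of elongation control 1 other passed, Ccnt2, on a compressed probe set.

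Metallothioneins bind zinc and other metals, and Mt2 had the largest difference of those that passed. Mt2 (1428942_at) read 10.94, 10.12, 11.95 and 11.86 in EtOH + EA livers and 8.03, 9.77, 9.68 and 9.74 in EtOH livers, a difference of 1.91 (standard error 0.445, adjusted p = 0.045). The nearest arrays were 0.35 apart, and the call was lost in 6 of the 8 fits without 1 array (EtOH + EA array 1, 3 or 4 or EtOH array 1, 4 or 5, adjusted p up to 0.14) and after quantile normalization (adjusted p = 0.054). Mt1 had a difference of 1.47 that did not pass (adjusted p = 0.063). EtOH livers in turn stood 1.82 above control livers (adjusted p = 0.035), which read 7.24 to 7.63. Slc30a10, a carrier that exports manganese, read 7.33, 7.33, 7.23 and 7.17 in EtOH + EA livers and 8.13, 7.80, 8.06 and 8.04 in EtOH livers (difference -0.74, adjusted p = 0.0048).

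Of 19 genes of phosphatidylcholine and glycerophospholipid metabolism, 2 were higher and 2 lower, beside 1.56% and 1.62% of all genes. Of genes with an uncompressed probe set 4.7% were higher and 5.58% lower. Gpcpd1, which cleaves glycerophosphocholine (1429144_at), read 9.99, 10.00, 10.22 and 10.16 in EtOH + EA livers and 8.62, 8.35, 8.15 and 9.16 in EtOH livers, a difference of 1.52 (standard error 0.24, adjusted p = 0.0091). Chka, the choline kinase that starts phosphatidylcholine synthesis (1450264_a_at), read 7.53, 7.51, 7.24 and 7.41 in EtOH + EA livers and 8.65, 8.40, 8.81 and 8.08 in EtOH livers, a difference of -1.06 (standard error 0.161, adjusted p = 0.0084). Other probe sets agreed in sign, with 1.09, 0.66 and 0.20 for Gpcpd1 and -0.62 and -0.76 for Chka, of which the 0.20 did not pass (adjusted p = 0.27). Lpcat3, which places polyunsaturated chains into phospholipids, was the other higher one (0.33, adjusted p = 0.039), and the ethanolamine kinase Etnk1 the other lower one (-0.27, adjusted p = 0.044). The calls of Lpcat3 and Etnk1 were lost in 6 and 8 of the 8 fits without 1 array (adjusted p up to 0.11 and 0.13).

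In triglyceride and fatty acid metabolism few genes passed, and most of those that did were higher. Cpt1a, the carnitine transferase that admits fatty acids to mitochondria, read 11.40, 11.54, 11.58 and 11.41 in EtOH + EA livers and 10.92, 11.21, 10.82 and 10.85 in EtOH livers (difference 0.53, adjusted p = 0.018). Pnpla2, the lipase that opens triglyceride breakdown, had a difference of 0.41 (adjusted p = 0.016), its coactivator Abhd5 one of -0.26 (adjusted p = 0.029), and the fatty acid transporter Slc27a2 one of 0.19 (adjusted p = 0.013). For Abhd5, 1 of 2 uncompressed probe sets passed. The triglyceride synthesis enzymes Gpat3 (0.44, adjusted p = 0.01) and Dgat2 (0.26, adjusted p = 0.024) were higher. Gpat3 read 9.10, 8.98, 8.97 and 9.10 in EtOH + EA livers and 8.58, 8.60, 8.59 and 8.63 in EtOH livers, and kept its call with only those groups in the fit (adjusted p = 0.028).

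By list, 2 of 27 genes of fatty acid oxidation and ketogenesis, 2 of 20 PPAR alpha targets, 2 of 15 of triglyceride synthesis and 2 of 17 of lipid droplets and lipolysis were higher, the last with 1 lower, beside 1.56% and 1.62% of all genes. Of genes with an uncompressed probe set 4.7% were higher and 5.58% lower. Cpt1a counts in both of the first lists, and Lipe, in the last, passed on a compressed probe set. Without EtOH + EA array 2 or EtOH array 1 the PPAR alpha and the lipid droplet lists held 0 higher genes, as did the PPAR alpha list without EtOH + EA array 3 and the lipid droplet list without EtOH + EA array 4. Of 16 genes of de novo lipogenesis 0 passed (2 higher and 2 lower at an unadjusted p under 0.05, 5 and 2 by rank product), and of 13 elongases and desaturases 0 (0 and 1, then 1 and 2). Fasn, the fatty acid synthase, had a difference of -0.17 (adjusted p = 0.88) with overlapping arrays. Calls were lost without EtOH + EA array 2 or 3 or EtOH array 1 or 4 for Cpt1a and Dgat2 (adjusted p up to 0.066 and 0.084) and without EtOH + EA array 2 or 4 or EtOH array 1 for Pnpla2 (adjusted p up to 0.052).

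Among sterol and bile acid genes, Insig2, the ER protein that retains SREBP (1417982_at), read 10.54, 10.24, 9.78 and 10.32 in EtOH + EA livers and 11.25, 10.71, 11.37 and 10.84 in EtOH livers, a difference of -0.82 (adjusted p = 0.039, standard error 0.184). Its other probe sets passed as well, with -0.77 (adjusted p = 0.017) and -0.74 (adjusted p = 0.015), but the first lost its call in 5 of the 8 fits without 1 array (EtOH + EA array 2, 3 or 4 or EtOH array 1 or 4, adjusted p up to 0.11). It was the only passing gene of 21 in cholesterol synthesis and uptake. Of 15 bile acid genes Amacr alone passed, at 0.19 (standard error 0.024, adjusted p = 0.0048). Both lists stand beside 1.56% higher and 1.62% lower of all genes, and 4.7% and 5.58% of those with an uncompressed probe set. Cyp7a1, the rate-limiting enzyme of bile acid synthesis, had the larger difference of 1.95, which did not pass (adjusted p = 0.11): it read 9.97, 10.94, 10.73 and 10.82 in EtOH + EA livers and 8.62, 7.69, 8.10 and 10.23 in EtOH livers, where array 5 lay above the lowest EtOH + EA array. Without EtOH array 5 the bile acid list held 3 higher genes.

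Genes of energy sensing and sugar storage included Ppargc1b, a PGC-1 coactivator of mitochondrial genes, which read 9.62, 9.47, 9.21 and 9.38 in EtOH + EA livers and 8.54, 8.69, 8.90 and 8.60 in EtOH livers (difference 0.74, adjusted p = 0.0056). Sirt3, the mitochondrial deacetylase, had a difference of 0.25 (adjusted p = 0.023, lost in 5 of 8 fits without 1 array, up to 0.081). Of 14 sirtuin and PGC-1 genes 2 were higher, beside 1.56% of all genes and 4.7% of those with an uncompressed probe set. Gys2, the liver glycogen synthase, read 11.01, 11.09, 11.20 and 11.23 in EtOH + EA livers and 10.41, 10.50, 10.40 and 10.45 in EtOH livers, a difference of 0.69 (adjusted p = 0.0057). Its groups were 0.51 apart at the nearest arrays, and the call held with only those groups in the fit (adjusted p = 0.027). Nmrk1, a kinase that turns nicotinamide riboside towards NAD (1448048_at), read 8.26, 8.12, 7.98 and 8.14 in EtOH + EA livers and 7.02, 7.31, 7.39 and 6.53 in EtOH livers, a difference of 1.06 (adjusted p = 0.017, and up to 0.053 without EtOH + EA array 4 or EtOH array 1). Of 20 TCA cycle genes 0 passed (1 higher and 0 lower at an unadjusted p under 0.05, 1 and 0 by rank product).

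Few amino acid enzymes passed: of 16 genes of the methionine cycle and transsulfuration 1 was higher and 1 lower, of 14 folate and glycine enzymes 0 and 1, and of 11 genes of the urea cycle and nitrogen handling 0 and 1. These stand beside 1.56% higher and 1.62% lower of all genes, and 4.7% and 5.58% of those with an uncompressed probe set. The higher enzyme gene was Mat2b, the regulatory subunit of methionine adenosyltransferase (0.17, adjusted p = 0.01). Gldc, the glycine cleavage enzyme, read 9.66, 9.37, 9.19 and 9.23 in EtOH + EA livers and 10.10, 9.66, 10.23 and 10.27 in EtOH livers (difference -0.71, adjusted p = 0.019), with equal values of 9.66 on EtOH + EA array 1 and EtOH array 3 at this rounding. Cbs, which starts transsulfuration, had a difference of -0.47 (adjusted p = 0.018), and Glud1, the glutamate dehydrogenase, one of -0.31 (adjusted p = 0.04). Ddc, the decarboxylase that makes dopamine and serotonin (1426215_at), is in none of these lists and read 9.50, 9.34, 9.05 and 9.01 in EtOH + EA livers and 9.95, 9.99, 9.75 and 10.64 in EtOH livers, a difference of -0.86 (adjusted p = 0.039). The calls of Gldc, Cbs, Glud1 and Ddc were lost in 5, 4, 6 and 6 of the 8 fits without 1 array, with adjusted p up to 0.069, 0.065, 0.12 and 0.12.

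DNA repair and pyrimidine salvage held Dclre1a, a nuclease of crosslink repair (1417904_at), which read 9.21, 9.55, 10.24 and 9.71 in EtOH + EA livers and 8.09, 8.09, 7.54 and 8.32 in EtOH livers. The difference was 1.66 (standard error 0.275, adjusted p = 0.011), and the RSV arrays, at 9.16 to 10.19, overlapped the EtOH + EA arrays (EA against RSV 0.04, adjusted p = 0.98). Upp2, a liver uridine phosphorylase (1451548_at), read 11.41, 11.33, 11.53 and 11.54 in EtOH + EA livers and 10.30, 10.52, 9.93 and 10.69 in EtOH livers, a difference of 1.09 (adjusted p = 0.0085). Dpyd, which breaks pyrimidines down, had a difference of 0.26 (adjusted p = 0.045) that was lost in all 8 fits without 1 array (adjusted p 0.058 to 0.13). These were the 3 of 15 genes that passed, all higher, beside 1.56% of all genes and 4.7% of those with an uncompressed probe set.

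Signalling and immune genes included Tnfsf10, the death ligand TRAIL (1439680_at), which read 8.33, 8.60, 8.52 and 8.33 in EtOH + EA livers and 7.21, 7.09, 7.02 and 7.69 in EtOH livers. The difference was 1.19 (standard error 0.182, adjusted p = 0.0084), and a second probe set gave 1.09 (1459913_at, adjusted p = 0.013). Ifit1 was the other of 20 interferon-stimulated genes that passed (0.55, adjusted p = 0.031, lost in 5 of 8 fits without 1 array, up to 0.1). That list thus held 2 higher genes, beside 1.56% of all genes and 4.7% of those with an uncompressed probe set. Rgs16, which shortens G protein signals and cycles in liver (1451452_a_at), read 8.22, 8.98, 8.89 and 8.85 in EtOH + EA livers and 7.21, 7.78, 6.79 and 7.82 in EtOH livers (difference 1.33, standard error 0.309, adjusted p = 0.045). Its other probe sets had larger differences, 1.58 and 1.71, that did not pass (adjusted p = 0.07 and 0.09), and its call was lost in 5 of 8 fits without 1 array (EtOH + EA array 2, 3 or 4 or EtOH array 1 or 4, up to 0.13).

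Glucocorticoid-responsive genes did not move as 1 group: of 18, Mt2, Fkbp5 (0.68, adjusted p = 0.047) and Nr3c1, the receptor itself (0.32, adjusted p = 0.033), were higher, and Dusp1, a phosphatase of stress kinases (-0.72, adjusted p = 0.018), was lower, with a list median of -0.0799. Of 24 acute phase proteins 3 were lower, the fibrinogen chains Fga (-0.30, adjusted p = 0.035) and Fgg (-0.18, adjusted p = 0.042) and the copper carrier Cp (-0.16, adjusted p = 0.0095). Both lists stand beside 1.56% higher and 1.62% lower of all genes, and 4.7% and 5.58% of those with an uncompressed probe set. The call of Cp held in all 8 fits without 1 array, while Fkbp5, Fga and Fgg lost theirs in 7, 6 and 7 (adjusted p up to 0.13, 0.11 and 0.12). Nr3c1 lost its call in 5 and Dusp1 in 3 (up to 0.11 and 0.058), and without 1 array the glucocorticoid list held 0 to 2 higher genes.

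The other named genes with higher values were Osbpl3, an oxysterol-binding protein relative (1.18, adjusted p = 0.0092), Sipa1l2, a regulator of Rap GTPases (1.02, adjusted p = 0.012), Slc16a5, a monocarboxylate carrier relative (1.01, adjusted p = 0.045), Pcsk4, a proprotein convertase (0.95, adjusted p = 0.0096) and Trim24, a nuclear receptor cofactor (0.87, adjusted p = 0.029). Osbpl3, Sipa1l2 and Pcsk4 kept their calls in all 8 fits without 1 array, while Slc16a5 and Trim24 lost theirs in 6 and 5 (adjusted p up to 0.13 and 0.087).

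Those with lower values were Lrfn3, an adhesion protein (-1.06, adjusted p = 0.0072), Tubb2a, a beta tubulin (-1.0, adjusted p = 0.015), Ypel2, a small zinc-binding protein (-0.93, adjusted p = 0.011), Slc41a2, a magnesium carrier (-0.86, adjusted p = 0.018), Dynll1, a dynein light chain (-0.82, adjusted p = 0.0057), Cpeb2, which controls translation through poly(A) tails (-0.77, adjusted p = 0.018) and Abtb2, a BTB domain protein (-0.77, adjusted p = 0.045). Dynll1 passed on 3 probe sets (-0.82, -0.76 and -0.68). Lrfn3, Ypel2 and Dynll1 kept their calls in all 8 fits without 1 array. Tubb2a lost its call without EtOH + EA array 3 (adjusted p = 0.056), Slc41a2 and Cpeb2 without EtOH + EA array 3 or EtOH array 1 (adjusted p up to 0.058 and 0.061), and Abtb2 in 6 of 8 fits (up to 0.13). In all, 16 of the 30 genes kept the call in each of the 8 fits and 9 lost it in at least 4.

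Among 31 genes of xenobiotic metabolism that CAR drives, 0 were higher and 0 lower with EA in wild-type liver. At an unadjusted p under 0.05 these were 4 and 3, and by rank product 9 and 6, with a median of 0.0301. Their mean level was 10.43 to 10.76 on EtOH + EA arrays and 10.47 to 10.64 on EtOH arrays, both above the 9.685 to 9.819 of control arrays. Insig2 (lower) and Cpt1a (higher), which the study lists among genes reported to be regulated by CAR, passed and are not in this list. Cyp2b10, the CAR target usually read first, was at 9.13, 8.83, 9.52 and 9.73 in EtOH + EA livers and 10.02, 8.74, 8.60 and 10.51 in EtOH livers, a wide overlap (difference -0.17, adjusted p = 0.92). Of 22 NRF2 targets 0 passed (1 higher and 1 lower at an unadjusted p under 0.05, 2 and 2 by rank product), of 13 genes of ethanol, acetaldehyde and acetate metabolism 0 (1 and 0, then 0 and 0), and of 18 cell cycle genes 0 (0 and 1, then 0 and 0). EtOH against control, in the same fit, gave 2501 probe sets (5.55%). Of the 30 named genes 5 passed there: Mt2, Rbm14 and Cpeb2 were higher in EtOH, and Hexim1 and Slc41a2 lower. For Hexim1 and Slc41a2 the EtOH + EA value was lower again, -1.37 and -1.54 against control (adjusted p = 1.1e-05 and 0.00019), while for Cpeb2 it was -0.11 (adjusted p = 0.68).

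The hepatocyte markers had a mean level of 13.02 to 13.06 on the EtOH + EA arrays and 12.98 to 13.07 on the EtOH arrays, and 0 of 9 passed (1 higher and 0 lower at an unadjusted p under 0.05, 1 and 0 by rank product). Of 85 markers in 10 cell type lists, 32 were uncompressed, 2 were higher and 0 lower. These counts stand beside 1.56% higher and 1.62% lower of all genes, and 4.7% and 5.58% of those with an uncompressed probe set. The higher markers were Fcgr2b of sinusoidal endothelial cells (0.23, adjusted p = 0.048, lost in 6 of 8 fits without 1 array, up to 0.14) and the adipocyte lipase Lipe on a compressed probe set. The mean of the 12 endothelial markers was 8.599 to 8.661 on EtOH + EA arrays and 8.534 to 8.561 on EtOH arrays, without overlap, and 5 of 12 were higher at an unadjusted p under 0.05. At that p 3232 of all 45037 probe sets were higher, and the share of lists with means that do not overlap was not counted. The part of endothelial cells in the other differences was not tested. Kupffer cell markers had means of 8.495 to 8.522 in EtOH + EA livers and 8.459 to 8.577 in EtOH livers, and stellate cell markers had means of 8.266 to 8.295 in EtOH + EA livers and 8.274 to 8.354 in EtOH livers. In whole liver, fewer cells of a type and less RNA in each cannot be told apart.

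In CAR-deficient mice EA against EtOH gave 0 of 45011 probe sets (0.0%, limma on those 12 arrays alone), beside 1813 higher and 2011 lower at an unadjusted p under 0.05, where wild-type mice gave 3232 and 3513. The smallest adjusted p was 0.093. There are 3 arrays per group in CAR-deficient mice and 4 in wild-type mice, and no test was made between them, so a call in 1 of them does not show a difference. Of the 30 named genes, 28 had the same sign in CAR-deficient mice, where Rgs16 (-0.12) and Trim24 (-0.02) did not, and 29 had a smaller difference than in wild-type mice, from which they were chosen as the largest. The exception was Slc41a2, at -1.29, with 1 EtOH array at 10.43 and the rest at 7.46 and 7.59.

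Tnfsf10 was closest to its wild-type size, at 1.14, and read 8.47, 8.95 and 8.77 in CAR-deficient EtOH + EA livers and 6.90, 8.03 and 7.86 in CAR-deficient EtOH livers. Per3 differed by 0.94 and Dclre1a by 0.92 with overlapping arrays, and Sfpq by -0.37 without overlap (9.41, 9.52 and 9.11 in EtOH + EA livers, 9.85, 9.71 and 9.59 in EtOH livers). The adjusted p of these 4 was 0.53, 0.55, 0.57 and 0.61. Arrays did not overlap for Tnfsf10, Nmrk1, Hexim1, Sfpq and Cpeb2. The share of all probe sets without overlap in CAR-deficient mice was not counted, nor was the share with the same sign in both genotypes. The counts of named genes therefore stand without a background.

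**Figure D4:**
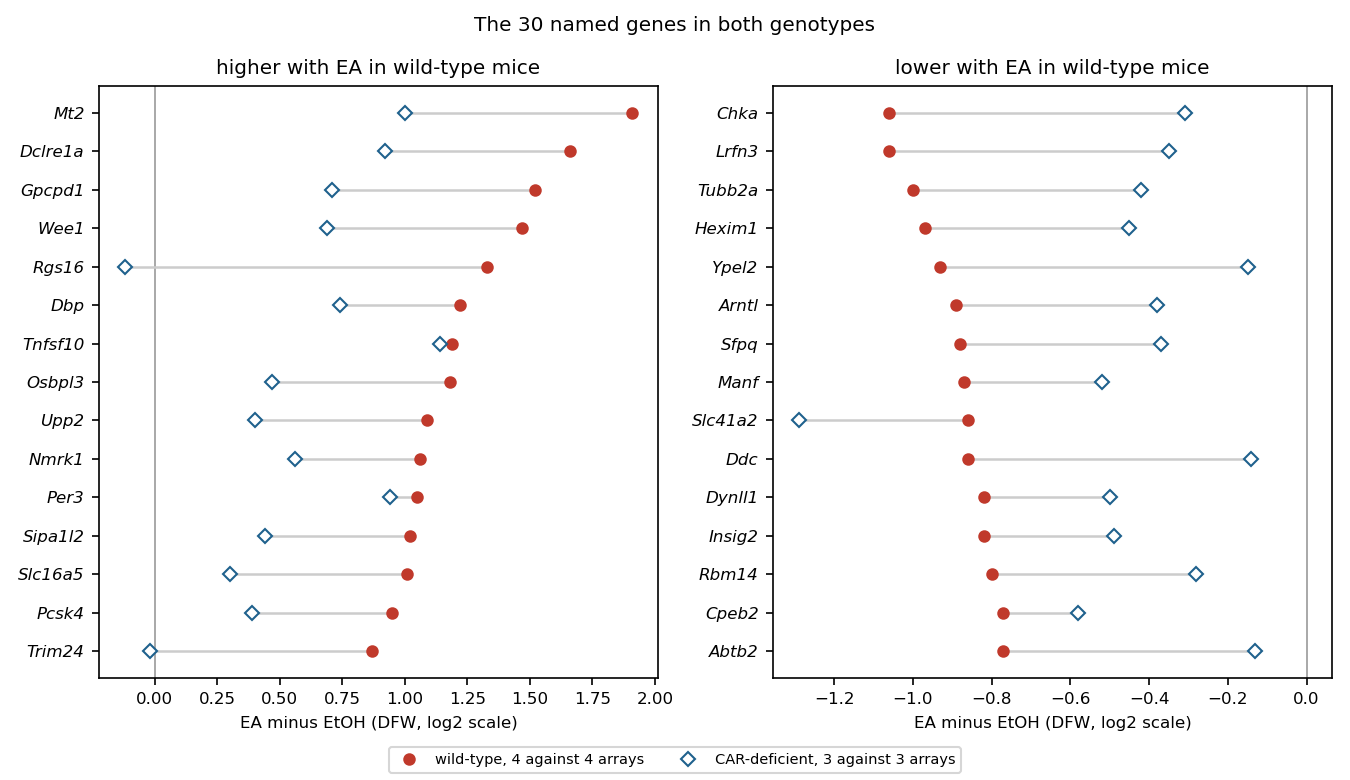
Difference of EtOH + EA minus EtOH (DFW, log2 scale) for the 30 named genes in wild-type mice (filled circles, 4 against 4 arrays) and CAR-deficient mice (open diamonds, 3 against 3), joined by a grey line. Of the 30, 28 lie on the same side of 0 in both, Rgs16 and Trim24 do not, and the genes were chosen on the wild-type values alone. The share of all probe sets with the same sign in both was not counted, so this count has no background.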

How the data were processed

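Liver RNA of each mouse was hybridized to an Affymetrix mouse genome array of its own. The authors summarised the probe sets by DFW and deposited log2 values, which were used as they are. Whether DFW was run apart for each genotype is not given in the sources used here, but probe sets compressed in both differed in level between the genotypes by a median of 0.152, so the genotypes were fitted apart and no test was made between them. Raw scans were not used here. Of 45101 probe sets, 64 array controls were set aside. Probe sets were named from the platform annotation supplied with the series: 34945 name 1 gene, 932 several and 9160 none.

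Diets were compared by limma 3.58.1 (lmFit, eBayes) in R 4.3.3, with 4 diets and 16 wild-type arrays in 1 fit and the 12 CAR-deficient arrays in another, and p adjusted over the probe sets of each fit after Benjamini and Hochberg. P-values measure the spread between mice, and the number of arrays limits the precision. A gene is named if it is among the 15 highest or 15 lowest differences that passed, uncompressed and without overlap of the groups, if it is in a list under discussion or if the study names it. The 49 lists, like the comparison itself, were chosen with earlier results of these data known. Promoter windows are RefSeq's, and 82 of 99 genes named or passing had one. Code was checked on simulated data with known changes of 0.5 or 1 in size, each in 100 probe sets. By limma 64 and 90 of them were recovered, with 8 calls among unchanged probe sets. By rank product 99 and 100 were recovered, with 493 such calls. Tables and figures were made in Python 3.11.15. Alternatives were the rank product, limma without moderation or with an intensity trend, quantile normalization, filters on level, compression, shared probe sets or size of difference, a replicate block, only the compared groups, and each array left out in turn. Values read to 2 decimals hide differences within compressed probe sets.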

Additional observations from a re-analysis of the deposited data

Results flagged for a closer look

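In 4 of the 60 groups of 4 arrays that the 30 named genes give, 1 array stood apart from the other 3 beyond Dixon's 95% limit, where chance alone gives about 1 in 20. Cpeb2 was at 7.98 on EtOH + EA array 3, below 8.46 to 8.55 on the other EtOH + EA arrays. Mt2 was at 8.03 on EtOH array 1, below 9.68 to 9.77 on the other EtOH arrays. Tubb2a was at 8.77 on EtOH array 5, below 9.41 to 9.51, and Dynll1 was at 10.36 on the same array, above 9.90 to 9.98. Without EtOH array 1 the call of Mt2 was lost, and without EtOH + EA array 3 that of Cpeb2, while Tubb2a and Dynll1 kept theirs without EtOH array 5.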

How the results depend on the processing

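The 497 higher, 569 lower and 11 EA against RSV probe sets depended on the fit. By rank product they were 1139, 1441 and 1547, after quantile normalization 307, 359 and 6, and with only the 2 groups compared 49, 62 and 5. With a replicate block they were 359, 316 and 4, and with a difference of at least 0.1 they were 276, 354 and 6. Testing fewer probe sets raised the lower calls to 900 (only those above the median level) or 910 (only uncompressed), and leaving out shared probe sets left 5 for EA against RSV. Without 1 array the counts ran from 183 to 539, 153 to 613 and 4 to 15. Of the 497 and 569, 276 and 345 were also called by rank product, 264 and 266 after quantile normalization, and 43 and 57 with only the 2 groups. Other causes of these shifts were not tested. The replicate numbers were not used to pair the mice, as the EtOH arrays are numbered 1, 3, 4 and 5. Residuals of same-numbered arrays correlated at 0.233, 0.119 and -0.236. Differently numbered arrays were not set beside them, so these values cannot decide whether the numbers pair the mice. The block took the call from 6 of the 30 named genes. None of the 30 turned its direction, 26 lost the call with only the 2 groups and 5 each after quantile normalization or without moderation, 2 to 13 without 1 array, and 0 with a trend, by rank product or in the filters on level and compression. The 30 were chosen as uncompressed and without overlap of the groups. So no fit without 1 array or with only the 2 groups could turn a direction, and the compression filter could drop none of them. Rank product uses all pairs of arrays, which share arrays, and its counts are no stricter test. In the simulated data it made 493 calls among unchanged probe sets, where limma made 8. Compressed probe sets have differences with no readable size.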

Other observations

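Outside the lists, and chosen after their values were seen, further transcripts passed in wild-type liver. Nlrc5, a regulator of class I antigen genes, was higher with EA by 0.61 and Irf2, an interferon regulatory factor, by 0.51, and both kept the call in all 8 fits without 1 array. Nr1i3, which encodes CAR itself, was higher by 0.64 (limma, adjusted p = 0.045), a call lost in 7 of those 8 fits. Hjv, a coreceptor of the iron signal to hepcidin, was higher by 0.53, Npc1, the lysosomal cholesterol exporter, by 0.55, and Pdk1, a kinase that inactivates pyruvate dehydrogenase, by 0.51. Whether the calls of Hjv, Npc1 and Pdk1 held in the fits without 1 array is not given here.

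Among lower transcripts outside the lists, Atp2a2, the calcium pump of the ER, differed by -0.49, Slc38a2, a neutral amino acid carrier, by -0.52, Ostc, a part of the ER oligosaccharyl transferase, by -0.52, and P4ha1, a collagen prolyl hydroxylase, by -0.44. Selenoi, which makes phosphatidylethanolamine, differed by -0.50, Lpl, lipoprotein lipase, by -0.42, and the tubulin Tuba4a by -0.48. Whether these lower calls held in the fits without 1 array is likewise not given here.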
